A study of Mus musculus with 23 samples.

Results

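Sites of p65 (RelA) were compared before and after a bacterial stimulus in mouse macrophages that lack the nuclear receptor corepressor NCoR. The sites are the peaks of 2 ChIP-seq libraries, 2227 in untreated cells and 22585 after 1 h of Kdo2-Lipid A (KLA). Together these make 24812 of the 58278 peaks in the 5 peak lists used from the series. A site was called kept where an untreated and a KLA peak overlapped by 1 bp or more. An untreated peak with no such partner was called lost, and a KLA peak with no such partner was called gained.

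Both libraries came from peritoneal macrophages elicited with thioglycollate in male C57BL/6 mice of 6 to 8 weeks and collected after 3 to 4 days. The mice carried floxed NCoR alleles and 1 copy of a LysM-Cre transgene (NCoR fl/fl Lys M-Cre +/-), which acts in cells of the myeloid lineage. Cells were serum-starved overnight and then left untreated or given 100 ng/ml KLA. Positions were also looked up in the p65 lists of wild type macrophages (NCoR fl/fl Lys M-Cre -/-, untreated or 1 h KLA) and in the biotin-tagged LXRβ list of RAW264.7 macrophage-like cells given 1 µM GW3965 for 2 h. Each group was 1 library, so no difference has a replicate check and no test between groups was run. The intervals given are at 95% and cover counting error only. The labels do not say whether animals were pooled. NCoR loss and macrophage markers could not be checked from lists of p65 sites.

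p65 is the transactivating subunit of the NF-κB heterodimer. In resting macrophages it is held in the cytoplasm by inhibitory IκB proteins. Lipid A is sensed by TLR4, the inhibitors are degraded, and p65 moves to the nucleus, where it binds κB sites at promoters and enhancers of inflammatory genes. NCoR is a corepressor that recruits histone deacetylase complexes and holds many of these genes down at rest.

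The untreated library held 786121 tags, of which 2.37% lay in peaks, and the KLA library held 1673506 tags, of which 17.66% lay in peaks. Peak height, as the authors gave it, is the tag number scaled to a library of 10000000 tags, so that 1 tag was worth 12.7 in the untreated and 5.98 in the KLA library. The score in both lists equals the number of tags behind that height. Both lists required 5 tags, which set the lowest listed height at 63.6 untreated and 29.9 after KLA. Peaks were 126 bp wide in the untreated and 144 bp in the KLA list. Both were called against an input from wild type macrophages. That filter removed 163 untreated and 1902 KLA candidates, and the filter on local signal removed 18 and 3116. Of the KLA peaks, 71.7% were also listed in wild type KLA cells and 2.20% in untreated wild type cells. All positions are on mouse build mm9. Gene annotation of that build was not used here, so sites are given by position.

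A short list of p65 sites gave way to a long one after KLA, and most untreated sites were not in the long list. The list became 10.1 times as long while the library was 2.13 times as deep. Of the untreated sites 922 were kept, which is 41.4% (39.3 to 43.5, exact Clopper-Pearson interval), and 1305 were lost, which is 58.6%. Of the KLA sites 21663 were gained, which is 95.9% (95.7 to 96.2), and the kept sites made up 4.08%. Gained sites held 93.7% of the tags in KLA peaks. Lost sites held 53.6% of the tags in untreated peaks.

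The growth of the list depended on where it was cut. At the lowest untreated height of 63.6 or more, 8580 KLA sites stood against the 2227 untreated sites, a ratio of 3.85, and 25.0% of untreated sites were kept. With 10 tags or more required in both lists the ratio was 31.4, but 10 tags are a height of 127.2 untreated and 59.8 after KLA. Above a common height of 200 there were 792 KLA and 124 untreated sites. An untreated site of 5 tags would hold 10.6 tags in the KLA library at an unchanged height, above the 5 required. Each culture was measured in bulk, so binding in fewer cells and less binding per cell cannot be told apart.

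Gained sites had a median height of 53.8 (quartiles 35.9 and 77.7) and kept sites were taller after KLA, at a median of 77.7 (47.8 and 132). The lost sites were low, with a median of 76.3 untreated, or 6 tags, and kept sites had the same untreated median. Their upper quartiles were 89.0 and 102. The height of a site before KLA thus separated kept from lost sites little over most of the list. After KLA the kept sites were taller in the median, but the quartile ranges of kept and gained sites overlapped. Among KLA sites with 30 tags or more, 139 were kept and 947 were gained. Kept sites also had to be listed untreated, and the part of that rule in their KLA height was not tested.

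**Figure D1:**
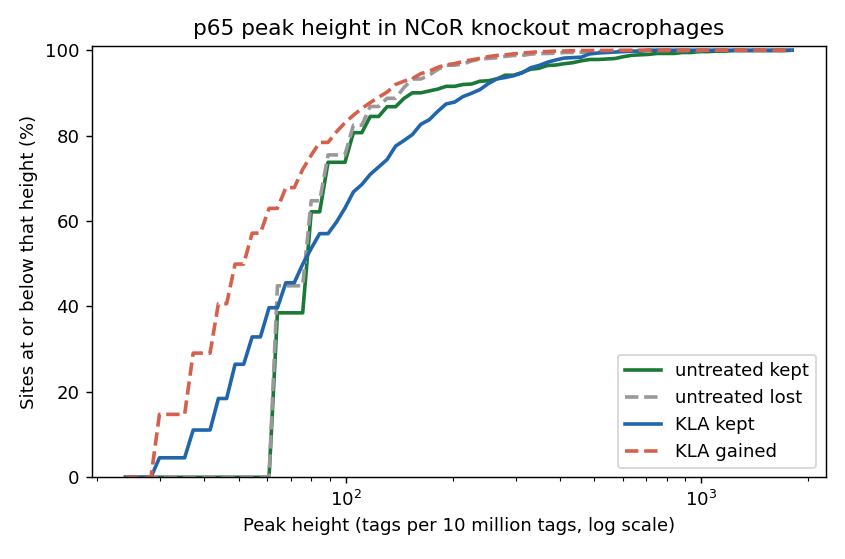
Cumulative share of sites (y axis, %) at or below a peak height (x axis, log scale, tags scaled to 10000000) for kept and lost sites in untreated cells and kept and gained sites after KLA. The untreated curves start together at 63.6, while after KLA the kept sites lie to the right of the gained sites, with medians of 77.7 and 53.8.

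The taller a KLA site was, the more often it was already listed untreated. Among KLA sites of 5 or 6 tags 1.59% (1.30 to 1.93) were kept. The share was 5.03% (4.53 to 5.57) at 10 to 19 tags and 12.8% (10.9 to 14.9) at 30 or more. Of the 100 tallest KLA sites, 29 were kept, and of the 1000 tallest, 131. Even at the top of the list most sites were therefore absent from the untreated list. Of kept KLA sites 5.64% had 1 or more scaled input tags, against 0.222% of gained sites. The part of input in the kept share of tall sites was not tested. Gained sites were found in the wild type KLA list the more often the taller they were, in 44.5% (43.3 to 45.8) at 5 or 6 tags, 89.1% (88.3 to 89.8) at 10 to 19 and 99.2% (98.3 to 99.6) at 30 or more.

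Untreated sites did not follow 1 slope. The kept share was 40.4% (37.8 to 43.0) at 5 or 6 tags, 41.7% (37.3 to 46.2) at 7 to 9 tags and 34.4% (28.2 to 41.0) at 10 to 19 tags. At 20 to 29 tags it was 68.8% (53.7 to 81.3), and at 30 or more it was 76.7% (61.4 to 88.2). Of the 20 tallest untreated sites, 18 were kept. The highest 2 classes hold 48 and 43 sites, so their intervals are wide, but they do not reach those of the 3 lower classes.

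**Figure D2:**
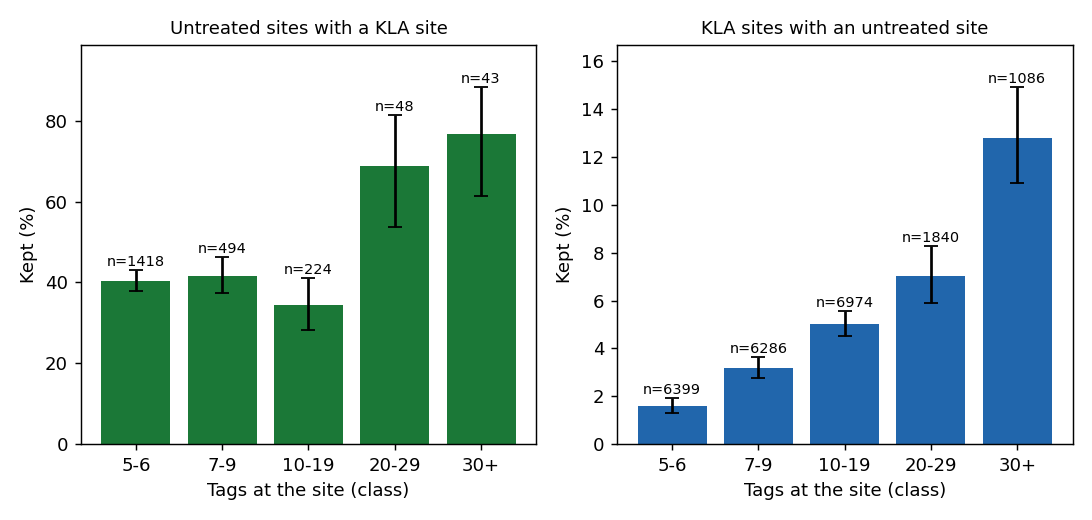
Share of sites kept (bars, %) by the number of tags at the site, for untreated sites (left) and KLA sites (right), with exact 95% intervals and the number of sites above each bar. The KLA shares climb from 1.59% to 12.8%, while the untreated shares stay near 40% up to 19 tags and are 68.8% and 76.7% above.

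The tallest gained sites were reached from below the listing limit within 1 h. The site at chr17:29532464-29532608 held 117 tags after KLA, a height of 699.1 (exact Poisson interval 578 to 838), and its nearest untreated peak was centred 34638 bp away. It had 1.0 scaled input tags. At chr12:8393598-8393742 the KLA height was 567.7 (459 to 694), and no untreated peak lay within 502550 bp. At chr10:77597965-77598109 the height was 573.6 (465 to 701), with the nearest untreated peak at 128217 bp. A gained site has no untreated knockout peak by rule, and the untreated wild type list held no peak at these 3 sites either.

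The other 5 of the 8 tallest gained sites lay 354 to 93984 bp from an untreated site. At chr19:6945446-6945590 (675.2, 556 to 812) an untreated peak of 101.8 was centred 1499 bp away. The site at chr10:37058124-37058268 (579.6, 470 to 707) had an untreated peak of 63.6, the lowest height listed, at 354 bp. At chr17:35339073-35339217 the KLA height was 561.7 (454 to 687), and the nearest untreated peak, of 139.9, was centred 29542 bp away. The site at chr11:117807869-117808013 reached 567.7 (459 to 694) with its nearest untreated peak at 45348 bp. For chr17:13203052-13203196 (657.3, 540 to 792) it lay at 93984 bp, while untreated wild type cells had 115.8 at the site itself. Those cells also had 64.3 at chr10:37058124-37058268, and no peak at the other sites of this paragraph. Input was 1.0 scaled tags at chr17:13203052-13203196 and at most 0.5 at the others. All 8 of the tallest gained sites were also listed in wild type KLA cells, at 471.6 to 679.1, so these heights were reached in both genotypes.

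Among sites listed in both conditions height did not rise on the whole, but the limits of the lists favour lower ratios. The median ratio of KLA to untreated height was 0.940, with quartiles of 0.587 and 1.60. It was above 1 at 413 sites and below 1 at 509. By a fold of 2 or more, 154 sites were higher (16.7% of the 922) and 158 were lower (17.1%). With 10 tags or more required in both lists, 4 sites were higher and 41 lower by that fold, and the median ratio was 0.579. Sites of the lowest untreated height can show a ratio no lower than 0.470 before they leave the KLA list, which limits how many falls can be seen. The limits also act on rises. A kept site needed 63.6 untreated but only 29.9 after KLA, so a site that rose from below 63.6 counts as gained. At 10 tags the limits, 127.2 and 59.8, are unequal in the same way. The ratio depends on the scale. Per tag in peaks in place of all tags its median was 0.126, with 0 sites 2-fold higher and 876 lower, since a far larger share of the KLA library lay in peaks.

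Untreated height differed between the ends of this range, as the limits of the lists require. KLA heights of kept sites ran only from 29.9 to 681.2, so a very large ratio needs a low untreated height and a very small one a tall untreated height. The sites that rose most were low before KLA. At chr17:18037870-18037996 the height went from 76.3 (6 tags) to 627.4 (105 tags), a ratio of 8.22 (3.65 to 22.9, exact conditional interval). At chr6:134139967-134140093 it went from 63.6 to 484.0, a ratio of 7.61 (3.13 to 24.1). At chr2:164268685-164268811 it went from 63.6 to 466.1, a ratio of 7.33 (3.01 to 23.2). The next were chr11:43199000-43199126, from 76.3 to 478.0, and chr14:26198453-26198579, from 63.6 to 394.4. All 5 started at 5 or 6 tags and had at most 0.2 scaled input tags untreated, and the wild type KLA list held them at 334.8 to 650.8. Tall after KLA and low before it were also chr10:18735127-18735253, at 101.8 and 597.5, and chr4:132538993-132539119, at 114.5 and 519.9.

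The sites that fell most were tall before KLA, which the lowest KLA height of 29.9 requires for ratios this small. At chr6:10136349-10136475 the height went from 445.2 (35 tags) to 29.9 (5 tags), a ratio of 0.0672 (0.0205 to 0.172). At chr5:89965185-89965311 it went from 457.9 to 35.9, a ratio of 0.0784 (0.0270 to 0.188). Ratios of 0.0811 (0.0245 to 0.212) were found at both chr15:97417815-97417941 and chr6:132413738-132413864, each from 368.9 to 29.9. The fifth, chr16:57242006-57242132, went from 445.2 to 41.8. All 5 had at most 0.1 scaled input tags untreated and stood 313 to 1413 times above their local surroundings by the authors' fold. Their centres moved by at most 7 bp between the libraries. The wild type untreated list held all 5, at 64.3 to 115.8.

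**Figure D3:**
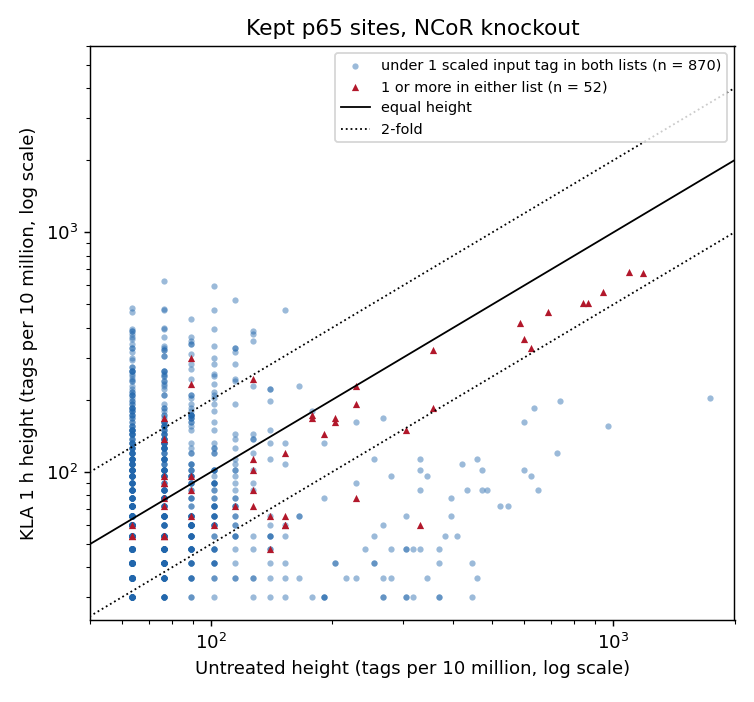
Untreated height (x axis) against KLA height (y axis) at each of the 922 kept sites, both in tags scaled to 10000000 on log scales, with the line of equal height and the 2-fold lines. Low untreated sites spread to KLA heights of up to 627.4, tall sites with low input form an arm below the lower 2-fold line, and tall sites with 1 or more scaled input tags lie mostly between that line and equal height.

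The median ratio went down with the untreated height, from 1.03 at 5 or 6 tags to 0.822 at 7 to 9 and 0.470 at 10 to 19. It was 0.164 at 20 to 29 tags and 0.194 at 30 or more. In the last 2 classes all 66 kept sites were lower after KLA. Untreated height is the divisor of this ratio and also set the classes, so the trend is given as a description only.

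Tall untreated sites fell into 2 groups by input, a split chosen after the values were seen. Of the 91 untreated sites with 20 tags or more, 70 had less than 1 scaled input tag. Of these 53 were kept and 17 lost, and 52 of the 53 were lower by 2-fold or more after KLA, with a median ratio of 0.161 (quartiles 0.128 and 0.216) and a median KLA height of 65.7. They were spread over 20 chromosomes, stood a median of 387248 bp from the next untreated site, and had a median of 556-fold over local signal and a focus ratio, the share of tags on the side of the centre that their strand predicts, of 0.955. Single sites departed from these medians. The tallest, at chr17:4626283-4626409, had a focus ratio of 0.568, the lost site at chr18:65587091-65587217 had another untreated site 285 bp away, and some of the 70 lay together in 1 window of chromosome 11. Whether the signal at these 70 sites is p65 binding was not tested.

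The untreated wild type list held 55 of them, at a median height of 116 against 369 in knockout cells. The knockout was taller at 55 of the 55, by a median of 2.97 times (quartiles 2.33 and 3.96). The sites were chosen for their knockout height, which favours this direction. In wild type cells 40 of the 70 were listed both untreated and after KLA, and all 40 were lower after KLA, with a median ratio of 0.310. These 40 were taken for being in both wild type lists, whose lowest heights were 64.3 untreated and 18.9 after KLA, and these unequal limits favour a lower height after KLA.

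The tallest sites of this kind show the sizes. At chr17:4626283-4626409 the height was 1743 (1463 to 2060) untreated and 203.2 after KLA, a ratio of 0.117 (0.0776 to 0.171). At chr11:25000108-25000234 it was 966.8 (762 to 1210) and 155.4, a ratio of 0.161 (0.0988 to 0.254). At chr1:12634827-12634953 it was 737.8 (560 to 954) and 197.2, a ratio of 0.267 (0.169 to 0.417). The last site stood 2233-fold above its surroundings, more than any other untreated site.

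The other 21 tall untreated sites had 1 or more scaled input tags and a higher median ratio where kept. Of these 13 were kept (61.9%, 38.4 to 81.9), against 75.7% (64.0 to 85.2) of the 70. Their median ratio was 0.597 (quartiles 0.527 and 0.623, range 0.181 to 0.906). In wild type cells 16 of the 21 were listed both untreated and after KLA. All 16 were lower after KLA, with a median ratio of 0.464, under the same unequal limits of the wild type lists. The sites at chr9:35112975-35113101 (1183 untreated and 675.2 after KLA, ratio 0.571, 0.430 to 0.759) and chr2:98507226-98507352 (1094 and 681.2, ratio 0.623, 0.467 to 0.834) had 6.3 and 5.5 scaled input tags untreated and 16.8 and 13.1 after KLA. At chr2:98502848-98502974 the heights were 941.3 and 561.7, at chr9:3035785-3035911 they were 865.0 and 507.9, and at chr9:3025426-3025552 they were 839.6 and 507.9. Their ratios were 0.597, 0.587 and 0.605. These 5 sites with high input thus sat within a narrow range of ratios, and their heights in untreated wild type cells, 887.8 to 1248, were like those in the knockout. The part of input in them was not tested.

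Lost sites were mostly seen in no other library. Of the 1305, 965 (73.9%, 71.5 to 76.3) overlapped no peak of the 2 wild type p65 lists or the LXRβ list, against 111 of the 922 kept sites (12.0%, 10.0 to 14.3). Over all 2227 untreated sites it was 1076 (48.3%). Wild type KLA cells listed 263 lost sites (20.2%, 18.0 to 22.4) and 780 kept sites (84.6%, 82.1 to 86.9). Within 5 or 6 tags these shares were 21.4% (18.7 to 24.3) and 84.8% (81.6 to 87.7). Kept sites are by rule in the knockout KLA list, and lost sites are by rule outside it. Of that list 71.7% was also in the wild type KLA list. The contrast between the classes is therefore partly built into the rule and is given as a description. The untreated wild type list held 63 lost (4.83%) and 221 kept sites (24.0%). Of the 263 lost sites listed in wild type KLA cells, 182 had a wild type height at or above 29.9, the lowest in the knockout KLA list. No input was used for the list of KLA-treated wild type cells, and of the 16 lost sites with 1 or more scaled input tags it held 12.

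The tallest lost sites differed in their surroundings. The tallest, at chr11:108873066-108873192, had 80 tags and a height of 1018 (807 to 1267), with 4.0 scaled input tags, and wild type KLA cells had 127.3 there. The peaks at chr6:125827050-125827176 (648.8, 483 to 853) and chr5:150059730-150059856 (394.3, 268 to 560) had KLA peaks of 77.7 and 35.9 centred 148 and 240 bp away, too far to overlap. At chr10:36983525-36983651 the height was 521.5 (374 to 708), 1606-fold over local signal, and the nearest KLA peak lay 15788 bp away. At chr18:65587091-65587217 (496.1, 353 to 678) a KLA peak of 472.1 was centred 2990 bp away. The nearest KLA peak to chr5:147072597-147072723 (559.7, 407 to 751; 2.6 scaled input tags) was at 387716 bp.

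A pair on chromosome 17, at 39983463-39983589 (508.8, 364 to 693) and 39985044-39985170 (457.9, 321 to 634), lay over 1 Mb from any KLA peak. These had 3.2 and 1.1 scaled input tags and only 6.82-fold and 5.71-fold over local signal, where 4-fold was required. So 4 of the 8 tallest lost sites had 1 or more scaled input tags, against 16 of all 1305. This contrast follows height in part, since a peak had to be 4-fold over input and a low site can hold little. Among lost sites of 20 tags or more, 8 had that much input and 17 had less. At 5 to 9 tags 2 had it and 1131 had less. The part of input and of the local filter in the loss of the tallest sites was not tested.

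Few lost sites were near misses of the overlap rule. Kept pairs had centres a median of 28 bp apart (quartiles 11 and 57, largest 133), and 22 of them overlapped by 20 bp or less, the least by 3 bp. Among lost sites 40 had a KLA centre within 200 bp, the nearest at 136 bp, and 100 (7.66%) had one within 500 bp.

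Within the untreated list kept sites had closer neighbours than lost sites, and within the KLA list the gap between kept and gained sites was smaller. The median distance to the next site of the same list was 145935 bp for kept and 217792 bp for lost sites among untreated sites, and 5688 bp for kept and 7082 bp for gained sites after KLA. Another KLA site lay within 10 kb of 57.9% (57.3 to 58.6) of gained and 62.1% (58.9 to 65.3) of kept sites. In the untreated list a neighbour that close was found at 13.0% (10.9 to 15.4) of kept and 7.89% (6.49 to 9.49) of lost sites. A longer list is packed more closely by its length alone, so spacing is not read between the lists.

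**Figure D4:**
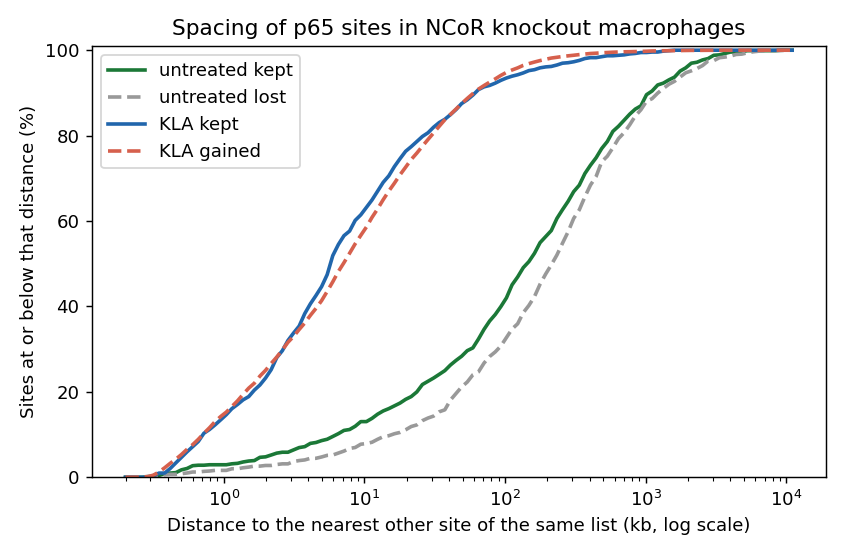
Cumulative share of sites (y axis, %) by the distance to the nearest other site of the same list (x axis, kb, log scale). Kept and gained sites after KLA run close together, with 62.1% and 57.9% within 10 kb, and in untreated cells lost sites lie to the right of kept sites.

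Distances to the other condition depend on the length of the list they are measured to. Measured to the 2227 untreated sites, 7.55% of gained sites had one within 10 kb, 50.2% were 100 kb to 1 Mb from the nearest one and 11.5% were over 1 Mb away. Lost sites, measured against the 10 times longer KLA list, had a KLA site within 10 kb in 38.1% (35.4 to 40.8) and within 100 kb in 79.9% of cases. With 10 tags or more in both lists that share within 10 kb was 14.7%. The gained site farthest from any untreated site, at chr14:87818428-87818572 (29.9), was 12287001 bp from it. The lost site farthest from a KLA site, at chrX:111546399-111546525 (89.0), was 2102215 bp from it.

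Closely spaced gained sites were taller. The median height was 41.8 where no other KLA site lay within 100 kb (1162 sites), 41.8 at a spacing of 10 to 100 kb, 53.8 at 1 to 10 kb and 59.8 within 1 kb (3218 sites). The share of gained sites with 30 tags or more was 0.947% in the first and 6.34% in the last of these classes. For kept sites the medians after KLA were 47.8, 71.7, 77.7 and 102 in the same order. A tall site can also be listed as more than 1 peak, which was not tested.

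When KLA sites with centres at most 10 kb apart were joined into chains, 9461 of the 22585 stood alone and 385 chains held 5 sites or more. A kept site was present in 3.69% (3.32 to 4.09) of the sites that stood alone, in 9.26% of chains of 2 to 4, in 27.7% (23.1 to 32.6) of chains of 5 to 9 and in 9 of the 20 chains of 10 or more. Longer chains have more chances to hold one: the share of their sites that were kept was 3.69%, 3.99%, 5.43% and 12.1%. The last share is 27 kept sites in 9 chains. Single windows of 100 kb on chromosomes 9 and 11 held 10 kept sites each, and their part in that share was not tested. The largest chains held 14 sites each. One spanned 55321 bp from chr11:8479576 with no untreated site, and the other spanned 53028 bp from chr4:47274097 with 1. In wild type KLA cells these stretches held 11 and 12 sites.

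Dense untreated regions were few. Of the 1931 windows of 100 kb with an untreated site, 3 held 5 or more. The window chr11:102000001-102100000 held 10 kept and 3 lost sites with untreated heights of 63.6 to 330.7 and at most 0.2 scaled input tags, and 4 gained sites. At chr9:3000001-3100000 there were 10 kept and 8 lost sites of 114.5 to 865.0, with up to 5.7 scaled input tags, and 3 gained sites. At chr11:104300001-104400000 all 9 untreated sites, of 76.3 to 267.1, were lost and 1 site of 155.4 was gained. Scaled input was at most 0.2 tags at the untreated sites and 0.4 at the gained site. Untreated wild type cells had no site in this last window and KLA-treated ones had 3.

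Smaller groups of kept sites followed. The 4 untreated sites at chr2:98500001-98600000, of 585.2 to 1094, were all kept at 418.3 to 681.2, with up to 6.0 scaled input tags. At chr19:32300001-32400000 the 3 untreated sites, of 63.6 to 89.0, were all kept and 10 more were gained, the tallest KLA site of the window reaching 328.7. At chr2:131800001-131900000, 3 of 4 untreated sites were kept and 3 more gained, with KLA heights of up to 173.3. Lost sites also grouped at chr1:89500001-89600000, where 3 of 63.6 to 89.0 were lost and 2 sites gained. The 3 at chr17:39900001-40000000, of 343.5 to 508.8 with up to 4.7 scaled input tags, were lost with none gained.

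The 5 windows with most gained sites held 1 untreated site in all. Of the 8061 windows with a KLA site, 1521 held an untreated site, so an absence of untreated sites is common and is not a trait of these 5. On chromosome 11 the windows from 8500001, 83400001 and 109200001 held 18, 16 and 16 gained sites and no untreated site. Their median KLA heights were 47.8, 65.7 and 98.6. On chromosome 14 the window from 103400001 held 14 gained sites up to 370.5 and no untreated site. That from 75500001 held 14 gained sites and 1 kept site, which was 63.6 untreated, with a median KLA height of 132. Input was at most 0.8 scaled tags in these 5 windows.

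Sites were spread over all autosomes and X in each class. On autosomes the kept share of untreated sites ranged from 27.6% (16.7 to 40.9) on chromosome 18, where 16 of 58 were kept, to 49.0% (38.6 to 59.4) on chromosome 15, where 47 of 96 were. On X it was 21.7% (10.9 to 36.4), with 10 kept and 36 lost. Only the intervals of chromosomes 18 and X end below the 41.4% of all chromosomes, among 20 compared. X held 2.26 KLA sites per Mb of the stretch between its first and last site, and the autosomes held 7.28 (chromosome 14) to 13.9 (chromosome 11). The median KLA height was 41.8 on X and 47.8 to 53.8 on autosomes. Before KLA it was 95.4 on X and 63.6 to 76.3 on autosomes. The mice were male, with 1 X chromosome, and the part of copy number in the values on X was not tested. Chromosome Y had 1 site, kept at 191 untreated and 29.9 after KLA.

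**Figure D5:**
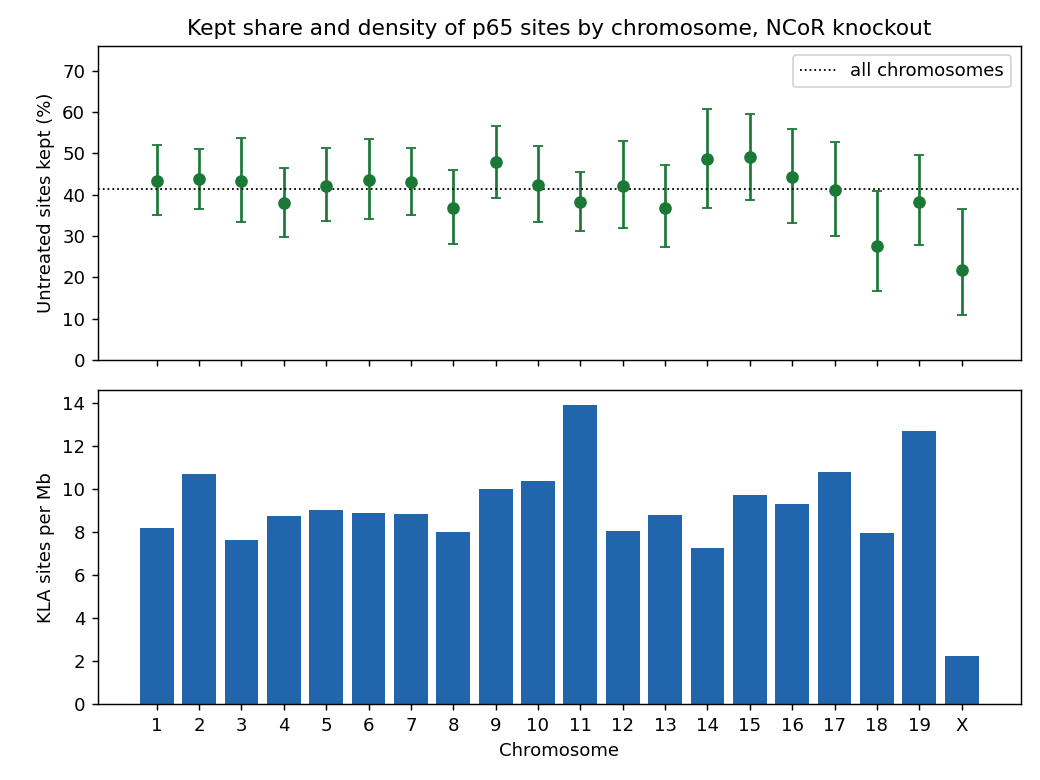
Top, share of untreated sites kept (points, %, with exact 95% intervals) for each autosome and X, with the share over all chromosomes as a dotted line. Bottom, KLA sites per Mb between the first and last KLA site of each chromosome; X is lowest in both, at 21.7% and 2.26.

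Chromosome 9 held 21 of the 36 untreated sites with 1 or more scaled input tags, and had the lowest median ratio at kept sites of any autosome, 0.672, a value also found on chromosome 14. The highest, 1.32, was on chromosome 16. The number of KLA sites per untreated site ran from 8.55 on chromosome 8 to 12.8 on chromosome 17 and was 7.85 on X. The share of gained sites that were also listed in wild type KLA cells was 67.1% to 73.3% on autosomes and 65.5% on X.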

How the data were processed

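Per the submitters' processing notes, Bowtie 0.12.7, HOMER and build mm9 were used, and a version of HOMER is not given in the sources used here. The file headers record that the authors ran findPeaks in factor mode on each library alone. They set a false discovery rate of 0.001, counted no more than 1 tag per position, and asked for 4-fold enrichment over input and over the local 10000 bp, the latter with a Poisson p of 0.0001. The deposited normalized tag count is a signal in tags scaled to a library of 10000000. The findPeaks score, also deposited, counts tags. The deposited focus ratio is a fraction, the deposited fold over local signal a ratio of tag densities, and the deposited control tags a signal scaled to the library. The deposited p-values were not used.

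Members and classes were chosen with earlier results of these data known. Overlaps, distances between centres and heights were computed with pandas 2.3.3, numpy 2.4.6 and scipy 1.17.1 under Python 3.11.15. The overlap code was tested on simulated data, where it found 900 of 900 planted sites among 2227 with 0 false ones, and bedtools 2.31.1 gave the same 922 overlaps in both directions. Shares have exact Clopper-Pearson intervals, heights exact Poisson intervals of their tags, and ratios an exact interval conditional on the tags of both libraries. Tags are not independent molecules, so intervals cover counting error only. The heights of the wild type KLA list do not all equal its score in tags and serve here only for description. Sites named were the 8 tallest gained, lost and kept (untreated and after KLA), the 5 largest and 5 smallest ratios, the 5 windows of 100 kb with most sites of each class and the sites farthest from the other list. Motif and gene counts that had been planned were not run, since the reference tables are of another build. Alternatives were other overlap rules, stricter or equal lowest heights, removal of sites with input, autosomes and X only, and other scalings of height.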

Additional observations from a re-analysis of the deposited data

Results flagged for a closer look

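The median KLA to untreated height ratio at kept sites lay on opposite sides of 1 in the 2 genotypes, at 0.940 in knockout cells (922 sites) and 1.28 in wild type cells (532 sites). Each rests on 1 library per condition and the difference was not tested. In both genotypes the lowest listed height was lower after KLA, which favours lower ratios. It was 63.6 untreated and 29.9 after KLA in the knockout, and 64.3 and 18.9 in wild type cells. Per bp of peak the medians were 0.822 and 1.00. The 2 sets of sites differ: at the 198 knockout kept sites also listed in both wild type lists the medians were 1.06 in knockout and 1.03 in wild type cells. Of these 198 sites, 91 were higher after KLA in both genotypes and 87 lower in both, while 9 were lower only in the knockout and 11 lower only in the wild type.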

How the results depend on the processing

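Of 53 alternative values, 31 stayed within the counting interval or within 1.5 times of a count, 22 moved and 0 reversed. Centres at most 500 bp apart gave 45.9% of untreated sites kept, 95.3% of KLA sites gained and 32.9% of lost sites with a KLA site within 10 kb, and overlap of 50% of both peaks gave 33.0% and 96.8%. With 10 tags or more in both lists the kept share was 28.6%, the gained share 99.1%, the ratio of list lengths 31.4, the median height ratio 0.579, the sites 2-fold higher 4 and 2-fold lower 41, the gained sites within 10 kb of another KLA site 50.8%, and the lost sites near a KLA site 14.7%; this leaves fewer sites. The cut at 10 tags is a height of 127.2 untreated and 59.8 after KLA, so it is stricter on the untreated list. At an equal lowest height the values were 25.0% kept, 93.5% gained, a ratio of 3.85 and 48.5% of gained sites near another. Without sites with 1 or more scaled input tags the ratio of list lengths was 10.3. Per bp of peak the median height ratio was 0.822. Scaled by tags in peaks it was 0.126, with 0 sites 2-fold higher and 876 lower. The cause of the other changes was not tested. With 1 library per group none could be left out. Of the untreated sites 63.7% had 5 or 6 tags, at or next to the listing limit, and the effect of equal depth on them was not tested.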

Other observations

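Sites of LXRβ, the oxysterol receptor whose target genes NCoR represses, were found more often at kept than at other p65 sites of knockout cells, though not among the few tall untreated sites. The LXRβ list of agonist-treated RAW264.7 cells overlapped 14.1% (11.9 to 16.5) of kept, 5.36% (4.21 to 6.73) of lost and 3.76% (3.51 to 4.02) of gained sites. Among KLA sites of 30 tags or more the shares were 22.3% (15.7 to 30.1) of kept and 6.76% (5.24 to 8.55) of gained sites, and at 5 or 6 tags they were 8.82% (4.11 to 16.1) and 1.89% (1.57 to 2.26). The cells differ, so this is a shared position and not binding in the same cell. The 130 kept sites with an LXRβ peak had a median KLA to untreated ratio of 1.17, and the 792 without one had 0.861. Their median KLA heights were 95.6 and 71.7 at the same untreated median of 76.3. The LXRβ share of kept sites was larger at taller KLA sites. The split therefore also sorts sites by KLA height, and the ratios are given as a description.

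At the 142 kept sites that were absent from the wild type KLA list the median ratio was 0.626, with 2 sites 2-fold higher and 50 lower. At the 780 kept sites also listed in wild type KLA cells it was 0.998, with 152 higher and 108 lower. Presence in that list followed KLA height, from 57.8% of kept sites at 5 or 6 tags to 99.3% at 30 or more. The split therefore sorts sites by KLA height, with medians of 47.8 and 83.7 at the same untreated median of 76.3, and a lower ratio follows from it.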
